A study of Bos taurus and Capra hircus with 9 samples.

Results

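The miR-200 family was examined in small RNAs of milk-derived extracellular vesicles (EVs) from cows and goats. Its members were taken by name, as bta-miR-200a, bta-miR-200b, bta-miR-429, bta-miR-200c and bta-miR-141. All 5 were found among the 296 listed bovine entries, and no other listed entry carries either of their seeds. The libraries came from 5 Holstein Friesian cows (animals 1, 2, 3, 20 and 62, at 30 ± 7 days in milk) and 4 primiparous Alpine goats (animals 17, 44, 79 and 127, at 26 ± 9 days), with 1 library per animal. EVs were purified from skimmed, cell-depleted milk on a sucrose gradient. Goat milk alone received a further acetic acid step, the species were kept on separate farms, and tags of both species were counted on bovine entries. Species therefore cannot be told apart from breed, farm, this step or the reference. Levels are deposited whole-number TPM, a unit that scales tags to a common library size. Such values hold no read number. The authors reported mean read numbers by species, but the depth and counting error of each library are unknown. The listed miRNAs added up to 239233 to 406336 TPM in goats and 267316 to 420029 TPM in cows.

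miRNAs of this family are hallmarks of epithelial cells. They repress ZEB1 and ZEB2, transcription factors that silence E-cadherin and drive the passage of epithelial cells to a mesenchymal state, and these factors in turn repress the miRNA genes. In the lactating mammary gland, the secretory epithelium makes the milk and is a source of its vesicles. Family members are produced from a pair of genomic clusters, and they carry a pair of seeds, the bases that choose the target mRNAs.

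The mature sequences are shown because cluster and seed divide the family differently. Each is printed from its 5′ end as deposited, with the seed (bases 2 to 8) in capitals.
bta-miR-200a: tAACACTGtctggtaacgatgtt
bta-miR-141: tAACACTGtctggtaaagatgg
bta-miR-200b: tAATACTGcctggtaatgatg
bta-miR-429: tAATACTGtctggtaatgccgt
bta-miR-200c: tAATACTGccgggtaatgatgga
Positions are counted from 1 at the 5′ end. The seeds differ by C4T, with miR-200a first and miR-200b second, so that miR-200a and miR-141 form one seed group and miR-200b, miR-200c and miR-429 the other. Listed lengths were 21 to 23 nucleotides and GC content 38.1% to 43.5%. The closest pair was miR-200b and miR-200c, which differ by T11G alone over their 21 shared bases and by the longer 3′ end of miR-200c. miR-200a and miR-141 differ by C17A and T22G over 22 bases. Whether tags of such close sequences were shared between entries was not tested. Outside the family the closest entry was 8 or more edits away from each member.

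In NCBI RefSeq for the ARS-UCD2.0 bovine assembly, all 5 members matched a gene by name. MIR429, MIR200A and MIR200B follow one another directly, between TTLL10 and C16H1orf159. MIR141 and MIR200C are neighbours on another chromosome, both within the long non-coding RNA gene LOC112446758, and PTPN6 comes next. Coordinates are left out, because no source used here names the build behind the deposited values. The cluster of miR-200a, miR-200b and miR-429 thus holds both seeds, as does that of miR-200c and miR-141.

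Among the listed miRNAs, miR-200a, miR-200b and miR-200c ranked between 5 and 12 in every animal. miR-141 ranked 26 to 54 and miR-429 ranked 51 to 66. Whether these levels come from epithelial cells was not tested. In goats miR-200a stood at 14083, 9042, 12328 and 12456 TPM (animals 17, 44, 79 and 127). In cows it stood at 13271, 16814, 11932, 11711 and 14610 TPM (animals 1, 2, 3, 20 and 62). The species overlapped, and the goat mean of 11977 ± 2114 TPM (SD, n = 4) was within 1 SD of the cow mean of 13668 ± 2109 TPM (SD, n = 5). miR-200b, its cluster partner, reached 15859, 10228, 13657 and 8003 TPM in the goats and 13407, 8853, 7222, 8577 and 8707 TPM in the cows, in the same order of animals. Its highest cow, number 1, lay within the goat range, and its lowest goat, number 127, lay within the cow range. miR-200c of the other cluster was at 14530, 8838, 11337 and 5729 TPM in the goats and at 15751, 13488, 11034, 9288 and 10998 TPM in the cows. Goat 127 again had the lowest level, and goat 44 was also below every cow, while goats 17 and 79 lay within the cow range.

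The other members of the family were scarcer. miR-141, the second product of the miR-200c cluster, was at 572, 245, 403 and 376 TPM in the goats and at 907, 1204, 780, 650 and 1160 TPM in the cows. Every goat was below every cow, and miR-141 was the only member without overlap on the deposited TPM. miR-429, the last of the miR-200a cluster, was at 305, 181, 259 and 254 TPM in the goats and at 196, 283, 181, 198 and 250 TPM in the cows. Its goat and cow ranges nearly coincided. miR-141 ranked 26 to 34 in cows and 43 to 54 in goats, and miR-429 ranked 54 to 61 in cows and 51 to 66 in goats. All 5 members passed the filter used for testing, above 1 TPM in at least 4 libraries, through both species.

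**Figure D1:**
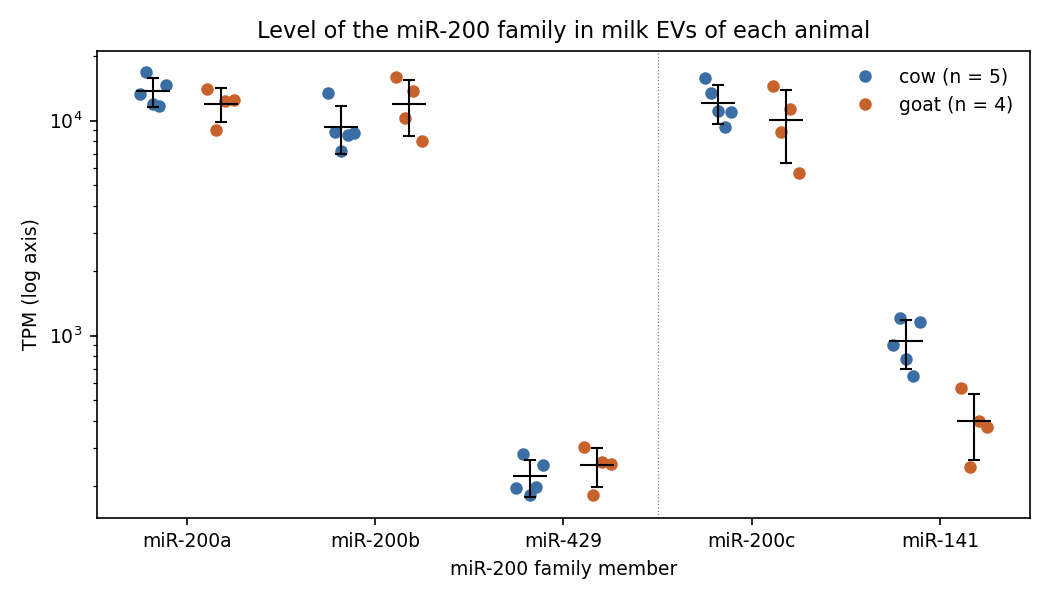
Levels of the 5 members in each animal, in TPM on a log axis, with cows in blue and goats in orange. Points are animals, black lines are means and bars are SD (n = 5 cows, n = 4 goats), and the dotted line divides the genomic clusters. Goats and cows are separate for miR-141 alone, from 245 to 572 TPM in goats and from 650 to 1204 TPM in cows.

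Within an animal, miR-141 and miR-429 came last in both species. TPM count tags and are not corrected for length, which is 21 to 23 nucleotides for all members. Whether the library preparation captured each sequence equally was not tested, so the order is one of tags. In cows the order of means was miR-200a, miR-200c, miR-200b, miR-141 and miR-429. miR-200c exceeded miR-200b in 5 of 5 cows, with a ratio of 1.08 to 1.53. In goats the order of means was miR-200a, miR-200b, miR-200c, miR-141 and miR-429, and miR-200b exceeded miR-200c in 4 of 4 goats, with a ratio of 1.09 to 1.40. miR-200a and its next neighbour did not differ beyond their spread in either species. The log2 ratio of miR-200a to miR-200b in goats was 0.04 ± 0.40 (SD, n = 4), and miR-200a was the higher in 1 of 4 goats. That of miR-200a to miR-200c in cows was 0.19 ± 0.27 (SD, n = 5), with miR-200a higher in 4 of 5 cows. Below these lay a wide step, to miR-141. miR-200c was 15.2 to 36.1 times miR-141 in goats, and miR-200b was 7.35 to 14.8 times miR-141 in cows. miR-141 exceeded miR-429 in all animals, by 3.28 to 4.64 times in cows and by 1.35 to 1.88 times in goats.

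The family as a whole took a similar share of the listed miRNAs in both species. The 5 members added up to 45349, 28534, 37984 and 26818 TPM in goats 17, 44, 79 and 127, and to 43532, 40642, 31149, 30424 and 35725 TPM in cows 1, 2, 3, 20 and 62. Within each species, these sums ranked in the order of the listed totals. As a share of that total, the family held 11.2%, 11.2%, 10.3% and 11.2% in the goats and 10.4%, 9.93%, 11.1%, 11.4% and 11.7% in the cows. The goat mean was 10.96 ± 0.46% (SD, n = 4) and the cow mean 10.90 ± 0.73% (SD, n = 5). No test was made on such sums, as they are scores over chosen members. When miR-148a, the first miRNA of every library, was left out of the total, the share was 15.3 ± 1.53% in goats and 17.2 ± 0.76% in cows. Within the family, miR-429 held 0.634% to 0.947% in goats and 0.450% to 0.700% in cows. miR-141 held 1.15 ± 0.24% of the family in goats and 2.59 ± 0.51% in cows, without overlap.

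The species were then compared for each member on log2(TPM + 1) with limma, fitted and adjusted over all 217 entries that passed the filter. miR-141 was lower in goats, with a log2 fold change, goat minus cow, of -1.26 (standard error 0.29, adjusted p = 0.00131, limma). On this scale cows were 2.39 times goats, with a 95% interval of 1.57 to 3.66. The difference was present in each comparison of a goat with a cow, and it kept its call without any 1 animal (log2 fold change -1.45 to -1.05, adjusted p = 0.000733 to 0.00725, limma). So 1 of 5 members was called, against 61.3% of all tested entries, and 24.0% of entries were called as lower in goats. For TPM without overlap of the species, the share was 51.2% of entries against 1 of 5 members. With 5 members, these shares do not set the family apart from the table, and in the direction of miR-141 the share of members was near that of all entries.

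The remaining members did not pass the test on the deposited TPM. The log2 fold change was -0.20 for miR-200a (95% interval -0.68 to 0.29, adjusted p = 0.471, limma). It was 0.34 for miR-200b (-0.23 to 0.91, adjusted p = 0.290), 0.17 for miR-429 (-0.36 to 0.70, adjusted p = 0.574) and -0.32 for miR-200c (-0.93 to 0.29, adjusted p = 0.345). All 4 intervals include 0 and are wide, so the levels were not shown to be equal. By sign, 3 members were below 0 and 2 above, with a median of -0.20 against 0.24 over all 217 entries.

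The calls of miR-200b and miR-200c depended on the total to which the values were scaled. After rescaling to the sum of the listed miRNAs, miR-200b was higher in goats (limma log2 fold change 0.43, adjusted p = 0.0143), where 44.7% of all entries were called as higher. As a share of the listed TPM, miR-200b was at 3.90%, 4.01%, 3.69% and 3.35% in goats and 3.19%, 2.16%, 2.58%, 3.21% and 2.85% in cows, each goat above each cow. With median-of-ratios scaling, miR-200c was lower in goats (limma log2 fold change -0.40, adjusted p = 0.0377), as 30.9% of all entries were, and so it was after scaling to the listed miRNAs without miR-148a (-0.40, adjusted p = 0.0145). miR-200a and miR-429 passed under none of the 4 rescalings. miR-141 was lower in goats under each of them, with log2 fold changes of -1.35 to -1.16.

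**Figure D2:**
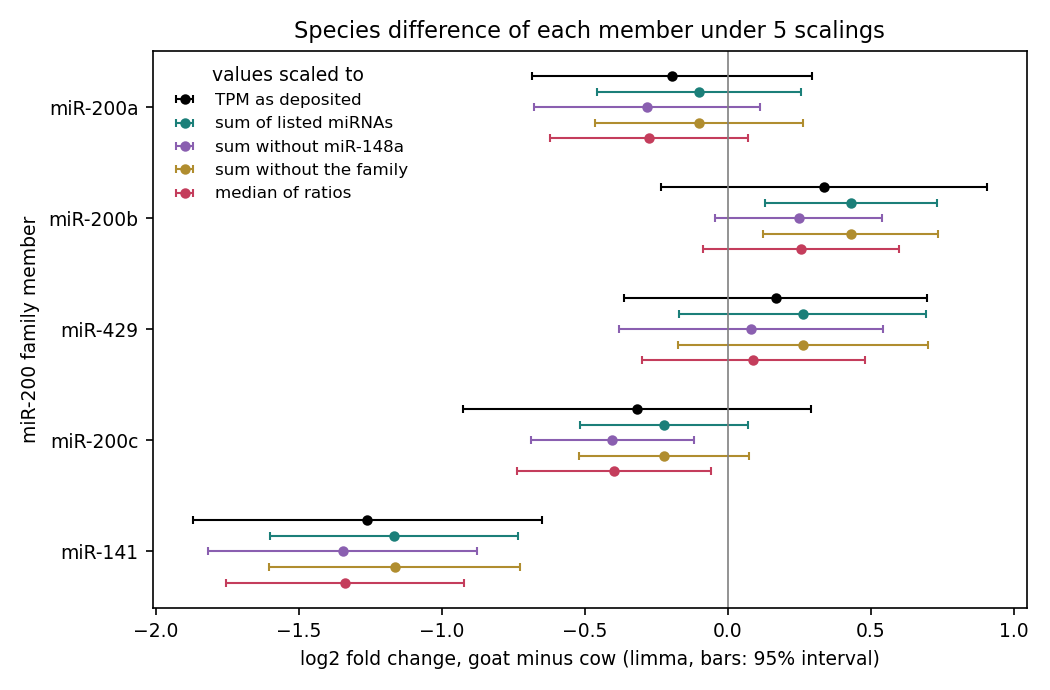
Log2 fold change between species for each member, goat minus cow, with 95% intervals from limma (n = 4 goats, n = 5 cows), on the deposited TPM (black) and after 4 rescalings (colours). miR-141 lies below 0 under all 5, from -1.35 to -1.16, while miR-200b clears 0 under 2 of them and miR-200c under 2 others.

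A ratio of 2 members within a library does not depend on that total. Ratios were therefore compared between species for all 10 pairs of members, by a two-sided exact permutation test over the 9 animals with adjustment over all 23436 pairs of tested entries. The smallest p this test can give is 0.00794, which becomes 0.0132 after adjustment. Of the 10 pairs, 6 passed and 5 did not overlap between species. Over all pairs of entries 71.6% passed and 65.2% did not overlap, and the counts of the family were near these shares.

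All 4 pairs with miR-141 passed, which tests its difference against that of each relative. Its cluster partner miR-200c was 25.4, 36.1, 28.1 and 15.2 times miR-141 in goats 17, 44, 79 and 127, and 17.4, 11.2, 14.1, 14.3 and 9.48 times in cows 1, 2, 3, 20 and 62. The ranges overlapped through goat 127 and cow 1, and the difference on the log2 scale was 0.94 (95% interval 0.24 to 1.65, limma; exact permutation p = 0.0159, adjusted p = 0.0241). Leaving out 1 animal at a time ended this call in 7 of 9 cases, with adjusted p up to 0.0799, and it held only without cow 1 and without goat 127. Only in these runs were the species apart, and the smallest p of the test is higher with fewer animals. Its seed partner miR-200a was 24.6, 36.9, 30.6 and 33.1 times miR-141 in the goats and 14.6, 14.0, 15.3, 18.02 and 12.6 times in the cows. All goats were above all cows, by 1.06 on the log2 scale (95% interval 0.49 to 1.63, limma; exact permutation p = 0.00794, adjusted p = 0.0132). The ratios of miR-200b and miR-429 to miR-141 differed by 1.59 and 1.43 in the same direction, without overlap and with the same exact p.

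The other pairs that passed were miR-200b with miR-200c and miR-200a with miR-429. miR-200b was 1.09, 1.16, 1.20 and 1.40 times miR-200c in the goats and 0.851, 0.656, 0.655, 0.923 and 0.792 times in the cows, so that the order of this pair, which shares a seed and not a cluster, was opposite in the species. The difference was 0.65 on the log2 scale (95% interval 0.09 to 1.21, limma; exact permutation p = 0.00794, adjusted p = 0.0132). miR-200a was 46.2, 50.0, 47.6 and 49.0 times its cluster mate miR-429 in the goats and 67.7, 59.4, 65.9, 59.1 and 58.4 times in the cows. These ranges were narrow and apart, and the difference was -0.36 on the log2 scale (exact permutation p = 0.00794, adjusted p = 0.0132). limma, which shares the spread of all pairs, did not call it (95% interval -0.89 to 0.16, adjusted p = 0.189), while it called the other 5 pairs and 74.3% of all pairs. Apart from miR-200c with miR-141, the pairs that passed kept their exact permutation call without any 1 animal. These pairs do not overlap between species, so each such run gave the smallest p possible and adds no support.

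For 4 pairs the ratio did not pass. The differences were -0.53 for miR-200a over miR-200b (95% interval -1.20 to 0.14, limma), 0.12 for miR-200a over miR-200c (-0.57 to 0.81), 0.17 for miR-200b over miR-429 (-0.53 to 0.86) and 0.49 for miR-429 over miR-200c (-0.23 to 1.20). Goat 127 stood apart in each of these. Its miR-200a was 1.56 times its miR-200b, against 0.884 to 0.903 times in the other goats. Without goat 127 the difference of miR-200a over miR-200c turned to -0.15, again without passing.

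By genomic cluster, 2 of 4 pairs within a cluster passed and 1 did not overlap, and 4 of 6 pairs across clusters passed and 4 did not overlap. By seed, 2 of 4 pairs with a common seed passed and 2 did not overlap, and 4 of 6 pairs with different seeds passed and 3 did not overlap. Over all pairs of entries the shares were 71.6% and 65.2%, and the divisions were not tested against each other. The only pair that shares both, miR-200b and miR-429, did not pass.

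**Figure D3:**
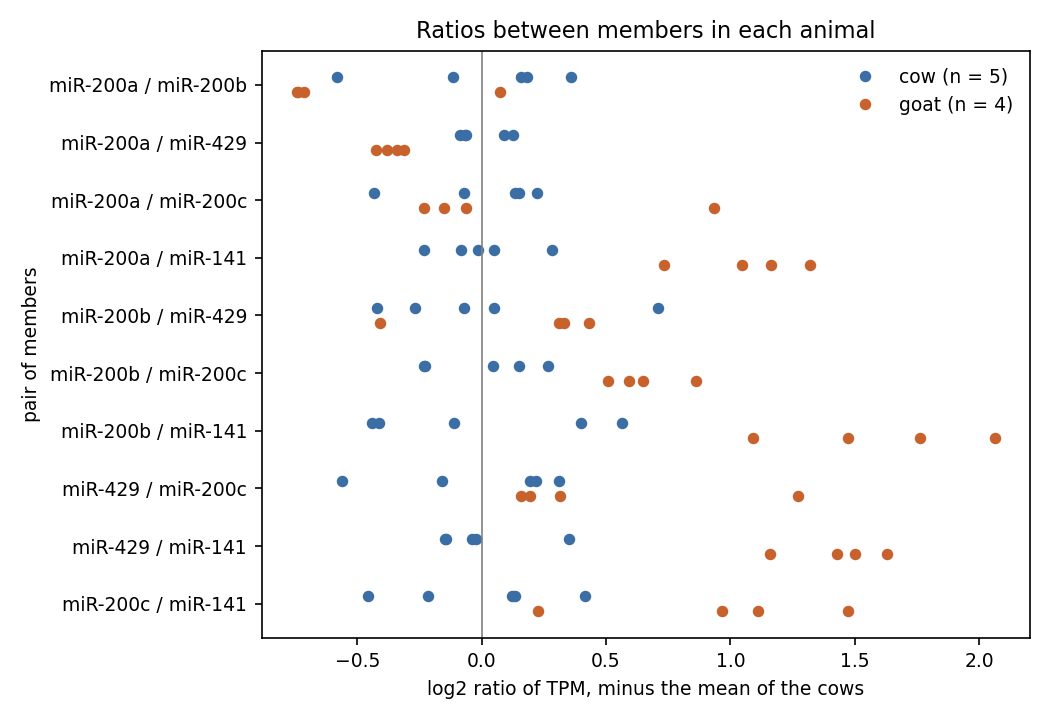
Log2 ratio of TPM for the 10 pairs of members in each animal, shown as the distance from the mean of the cows (blue, n = 5; goats in orange, n = 4). The goats lie to the right of all cows for miR-200a, miR-200b and miR-429 over miR-141 and for miR-200b over miR-200c, and to the left for miR-200a over miR-429. Goat 127 is the single orange point far from the others in the ratios of miR-200a to miR-200b and of miR-200a to miR-200c.

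The clusters were also set against each other in each animal, as the mean log2(TPM + 1) of miR-200a, miR-200b and miR-429 minus that of miR-200c and miR-141. This contrast was 0.50, 0.80, 0.72 and 1.00 in goats 17, 44, 79 and 127, and -0.21, -0.21, -0.23, 0.14 and -0.17 in cows 1, 2, 3, 20 and 62. All goats lay above all cows, with means of 0.76 ± 0.21 (SD, n = 4) and -0.14 ± 0.16 (SD, n = 5). A mean of logs gives the scarce miR-141 the same weight as miR-200c. On summed TPM, the first cluster was 2.00, 2.14, 2.24 and 3.39 times the second in goats and 1.61, 1.77, 1.64, 2.06 and 1.94 times in cows, and the species overlapped. They also overlapped on the mean of logs when miR-141 was left out, where the difference between species fell to 0.42 from 0.89.

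The seed contrast was built in the same way, from miR-200b, miR-200c and miR-429 against miR-200a and miR-141. It was 0.54, 0.77, 0.62 and 0.07 in the goats and -0.0026, -0.48, -0.32, -0.14 and -0.51 in the cows, with means of 0.50 ± 0.30 (SD, n = 4) and -0.29 ± 0.22 (SD, n = 5). All goats were again above all cows, though goat 127 was close to cow 1. On summed TPM, the group of miR-200b took 67.7%, 67.5%, 66.5% and 52.2% of the family in goats and 67.4%, 55.7%, 59.2%, 59.4% and 55.9% in cows, and the species overlapped. Without miR-141 the difference between species was 0.26 in place of 0.79, with overlap. Leaving out miR-429 instead kept the species apart in the cluster contrast, with a difference of 0.86, but not in the seed contrast, where goats ran from 1.64 to 2.67 and cows from 1.25 to 2.07. As scores over chosen members they were not tested.

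**Figure D4:**
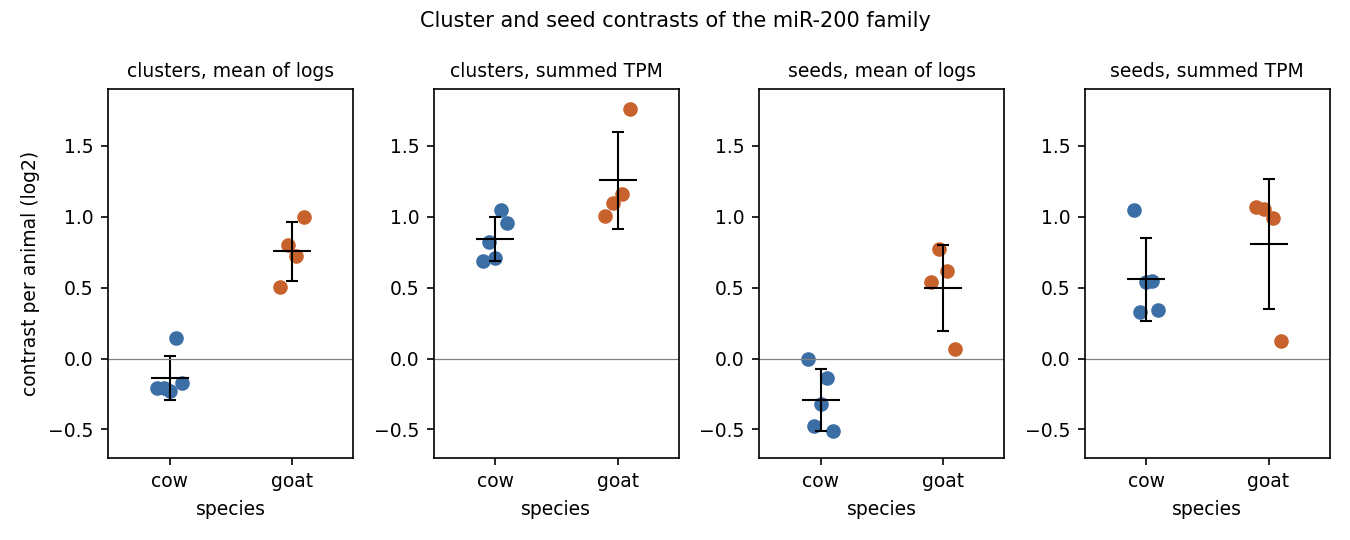
Cluster and seed contrasts per animal on a log2 scale, from means of logs and from summed TPM. Points are animals, black lines are means and bars are SD (n = 5 cows, n = 4 goats). Goats and cows are apart on the means of logs, from 0.50 to 1.00 against -0.23 to 0.14 for the clusters, and overlap on the summed TPM.

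How closely the members moved together was described by the SD over the 9 animals of the log2 ratio of each pair, where a low SD is a near-constant ratio. Over the 10 pairs the median SD was 0.47, with a range of 0.21 for miR-200a with miR-429 to 0.94 for miR-200b with miR-141. Over all 5565 pairs of the 106 entries above 10 TPM in every library, the median was 0.69. Over pairs of entries above 100 TPM in every library it was 0.55. This SD includes the differences between species. Around the species means, the medians were nearly alike, at 0.40 for the 10 pairs and 0.43 for all pairs of the 106 entries. Over all animals of both species, no member was the closest entry of another. Among 105 other entries, miR-429 was at place 5 in closeness to miR-200a, and miR-200a at place 3 for miR-429. miR-200c was at place 29 for miR-200b. For miR-141 its seed partner miR-200a was at place 22 and its cluster partner miR-200c at place 30. The miRNAs outside the family with the most constant ratio to a member were miR-362-5p and miR-29a for miR-200a (SD 0.17 and 0.20), let-7f and let-7g for miR-200b (0.18 and 0.19), and miR-26a and miR-30e-5p for miR-429 (0.17 and 0.19). For miR-200c they were let-7a-5p and let-7d (0.20 and 0.24). For miR-141 they were miR-32 and miR-99a-5p (0.22 and 0.26), with log2 fold changes between species of -1.30 and -1.21. A near-constant ratio over both species fixes that they share the direction of miR-141.

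On the other measure, the SD around the species means, miR-200a and miR-429 were each other's closest entries, and the ratios of the family fell into a lower and an upper group of SD. The lower group held miR-200a with miR-429 (0.08), miR-200b with miR-200c (0.20), miR-429 with miR-141 (0.20) and miR-200a with miR-141 (0.22). The other 6 pairs had an SD of 0.38 to 0.44, close to the median of 0.43 over all pairs of the 106 entries. This grouping, of miR-200a, miR-429 and miR-141 on one side and miR-200b and miR-200c on the other, follows neither the clusters nor the seeds. It coincides with the base after the seed, which differs by T9C between miR-200a and miR-200b. Both the grouping and the base were noticed after the values were seen, and they were not tested. The upper group rested on goat 127 and cow 1, because without these animals its 6 pairs had an SD of 0.11 to 0.36 and overlapped the other 4 pairs, at 0.07 to 0.25.

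**Figure D5:**
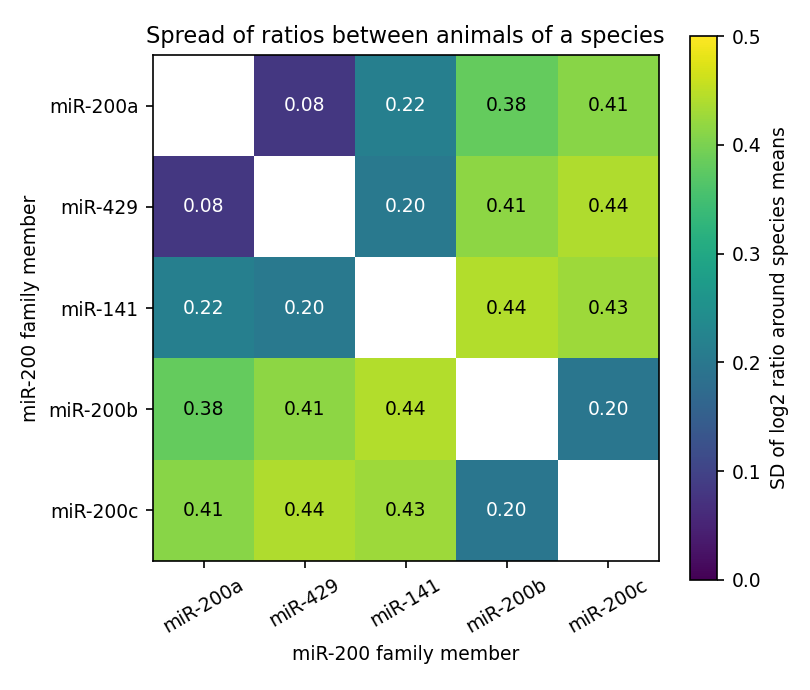
SD of the log2 ratio of each pair of members around the species means, over 9 animals. Dark cells are near-constant ratios, the lowest being 0.08 for miR-200a with miR-429, and the 6 light-coloured pairs of 0.38 to 0.44 set miR-200b or miR-200c beside one of the other members. Each pair is shown on both sides of the diagonal.

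Other epithelial miRNAs were examined beside the miR-200 family, without a test between the lists. Of 7 names, 6 had an entry and 5 were tested, with 3 lower in goats, 1 higher and 1 not passing, where 61.3% of all entries were called. Over all entries 24.0% were called as lower in goats. The median log2 fold change of the 5 tested was -2.22, the value of miR-182, against 0.24 over all entries. The 3 lower entries, miR-182, miR-183 and miR-96, come from 1 cluster active in epithelial and sensory cells and are not independent. miR-182 was at 127, 136, 177 and 25 TPM in goats 17, 44, 79 and 127 and at 330 to 597 TPM in cows (limma log2 fold change -2.22, adjusted p = 0.000618). miR-183 and miR-96 followed with log2 fold changes of -2.23 and -2.74, and goat 127 was the lowest goat for all 3. miR-205, a marker of basal epithelial cells, was at 12 to 25 TPM in goats and at 0 or 1 TPM in cows. Only its goat values cleared the filter, so its direction was set by the choice of entries. miR-375, an epithelial miRNA best known from endocrine cells, overlapped between species at 1034 to 4513 TPM in goats and 1251 to 2506 TPM in cows (adjusted p = 0.335, limma).

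Markers of other cell types also differed between species in part. Of 6 leukocyte entries 5 were tested and all 5 were higher in goats, as were 37.3% of all entries. miR-223, miR-142-5p and miR-150 cleared the filter by their goat values alone, which set their direction, while miR-155 and miR-342 cleared it in both species. The leukocyte list summed to 366 to 1131 TPM in goats and 16 to 49 TPM in cows. miR-223 was at 0 in 2 cows. The 3 stromal and endothelial entries summed to 217 to 425 TPM in goats and 19 to 30 TPM in cows, most of it miR-143. miR-145 was at 1 or 2 TPM in goats and listed at 0 in every cow, and miR-126-3p was at 0 to 3 TPM in goats and 0 to 5 TPM in cows (limma log2 fold change -0.92, adjusted p = 0.144). miR-126-3p cleared the filter by its cow values alone, which set its direction. Among erythroid entries miR-451 reached at most 26 TPM and miR-486 at most 11 TPM, both in goat 79, and the muscle entry miR-1 at most 2 TPM. The part of these lists in the differences of the family was not tested. In such bulk preparations, fewer vesicles from a cell type and less of a miRNA per vesicle cannot be told apart.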

How the data were processed

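Small RNA libraries of milk EVs were prepared by the authors with a NEBNext kit and sequenced on an Illumina instrument. Adapters were trimmed and tags counted on miRBase 20 bovine entries. No source used here names the mapping program or the genome build. The deposited values, treated as a score, are TPM that the authors rounded, for 296 entries in 9 libraries. Depth per library is unknown, so no counting interval was computed.

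Groups came from the sample labels. limma 3.58.1 in R 4.3.3 was run on log2(TPM + 1), with a variance trend, on 217 entries, those exceeding 1 TPM in 4 or more libraries, and p was adjusted by Benjamini-Hochberg with a threshold of 0.05. Ratios of all pairs of tested entries were compared by exact permutation tests in Python 3.11.15, in which the 126 assignments of 9 animals to 4 and 5 were ranked by absolute difference of means. Pairs share entries and are not independent. Both were run on simulated data with planted differences. For the ratios these were larger than any difference of the family, so power at the reported sizes was not measured. p-values set the difference between species against the spread between animals. Animal numbers are not shared between species.

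Named miRNAs are the 5 members, entries with a member's seed, the 2 closest entries per member, the listed epithelial miRNAs, and entries behind small counts. The members and lists were chosen with earlier results of these data known. Alternatives were pseudocounts of 0.1 and 10, other filters, 4 rescalings, limma without a trend, limma on ratios, summed TPM, contrasts without miR-429 and, added after seeing the data, without miR-141, SDs without goat 127 and cow 1, and leaving out each animal.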

Additional observations from a re-analysis of the deposited data

Results flagged for a closer look

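Among 36 sets of animals examined (18 measures of the family in each species), 8 had an animal far from the rest by Dixon's ratio at the 95% level, where chance alone gives about 1 in 20. Of these, 4 concerned goat 127. Its log2 ratio of miR-200a to miR-200b was 0.64, against -0.18 to -0.15 in the other goats, and that of miR-200a to miR-200c was 1.12, against -0.05 to 0.12. Its log2 ratio of miR-200b to miR-429 was 4.97, below 5.70 to 5.81 in the others, and that of miR-429 to miR-200c was -4.49, above -5.60 to -5.45. These 4 ratios share members and are not independent.

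In cows, the miR-200b level of cow 1 was 13407 TPM, against 7222 to 8853 TPM in the others. Cow 20 was highest in the log2 ratio of miR-429 to miR-141, at -1.71 against -2.21 to -2.09, and in the cluster contrast, at 0.14 against -0.23 to -0.17. Goat 79 had the lowest share of the family in the listed TPM, at 10.3% against 11.2% in each other goat. The cause of these values was not tested.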

How the results depend on the processing

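Apart from leaving out single animals, 102 recomputed values of the main results were counted as unchanged and 6 moved. A further 4 came to pass and 1 no longer passed. For tested differences, unchanged means the same direction and the same side of the threshold. Contrasts, the family share, SDs and counts have no threshold and were judged by the size of the change, not by direction. The number of miRNAs called between species was 133, and 80 when only entries above 10 TPM in at least 4 libraries were tested, which are fewer. Scaling to the listed miRNAs, with or without the family, made miR-200b pass as higher in goats (log2 fold change 0.43 in both), and miR-200c lower without miR-148a in the total or by median of ratios (-0.40 in both). limma on ratios did not call miR-200a over miR-429 (-0.36, adjusted p = 0.189). On summed TPM the difference between species fell to 0.41 for the cluster contrast and 0.25 for the seed contrast, and without miR-141 to 0.42 and 0.26. Without miR-148a in the total, the difference of the family share was -1.88 percentage points in place of 0.06. On the deposited TPM scale this difference was -0.16 percentage points, a change of sign that was still counted as unchanged.

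With each animal left out, miR-200c over miR-141 ranged from 0.77 to 1.18 and lost its call in 7 of 9 runs (adjusted p = 0.0299 to 0.0799, exact permutation test). The smallest p this test can give is higher with fewer animals. miR-200a over miR-200c ranged from -0.15 to 0.24 and turned negative at -0.15 without goat 127. The number of miRNAs called ranged from 95 to 130, and the number of member pairs called was 5 or 6. Depth per library is unknown, so its part in the differences that did not pass could not be measured. Other causes of these changes were not tested.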

Other observations

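miR-200c was the member whose ratios to let-7 miRNAs varied least between animals of a species. Among the 105 other entries above 10 TPM in every library, 9 were let-7 miRNAs, and 4 of the 10 entries closest to miR-200c were among them. For miR-200b there were 2, for miR-141 there was 1, and for miR-200a and miR-429 there were 0. Around the species means, the median SD to the let-7 miRNAs was 0.26 for miR-200c and 0.29 for miR-200b, which was close. It was 0.40 to 0.46 for the other members. The SD of the log2 ratio of miR-200c to let-7f around the species means was 0.14, below the 0.20 of miR-200c to miR-200b. This count was made after the values were seen and was not tested.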
